A study of Mus musculus with 8 samples.

Results

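Genes that copy DNA were examined as a set of 51 in B16-F10 cells, a mouse melanoma line. Members were the rows of the deposited table whose symbol is on a fixed list of replication and S phase genes, and all 51 were found among 46477 rows. The list was chosen with earlier results of these data known. A share of these genes set against all genes therefore describes the list and is no independent test. The cells had grown for 24 hours on matrix left by lysed smooth muscle cells, and there was 1 library for each of 8 conditions. The smooth muscle cells had received siNT, siKLF4, siFN or siKLF4-siFN for 72 hours and had then spent 72 hours in SFM or TCM, so each condition is a pair of a medium and an siRNA treatment. TCM is taken to be the tumor conditioned media of the series title, and the labels do not spell out SFM. The melanoma cells themselves received no siRNA, and all 8 conditions share the cell line, the time on the matrix and a matrix made by smooth muscle cells given some siRNA. Whether the libraries stem from separate cultures is not stated, and p-values then reflect no more than the spread among these libraries. That spread may be technical or may come from treatment differences that the tests leave out.

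DNA replication begins in G1, when the origin recognition complex, Cdc6 and Cdt1 load the ring of Mcm2 to Mcm7 onto origins. At the start of S phase, kinases and the Cdc45 and GINS proteins turn the ring into a moving helicase, which polymerases, the sliding clamp and its loader then follow. Many of these genes are transcribed under E2F factors as cells pass from G1 into S phase, so their RNA is widely used as a mark of proliferating cells, tumour cells included.

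Values are FPKM, the fragments counted for a gene, scaled by its length and by library size. Estimated depth was 11600000 to 23000000 reads, from steps in low FPKM values, and is approximate. Of the 51 genes, 41 averaged 0.5 FPKM or more and are described in full. Pola2 lay just above that level, at a mean of 0.509, and Clspn just below it, at 0.475. A mean of at least 1 was reached by 31 genes, which entered the tests. The labelled cell type showed in Tyrp1, Dct, Pmel, Mlana and Sox10 (mean FPKM 248.6, 79.6, 76.4, 33.5 and 24.2), while Kit and Oca2 were near 0, at 0.00392 and 0.0135. Of 15 smooth muscle markers, Acta2, Myocd and Rgs5 were listed at 0 in every library and the summed FPKM was 2.62 to 4.08, while 12 fibroblast markers summed to 0.630 to 1.53 and 10 leukocyte markers to 1.97 to 4.59. TCM siFN and TCM siKLF4-siFN were the closest of 28 pairs of libraries (Pearson r = 0.994 over 6917 genes), and whether they were separate RNAs was not tested.

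All 51 genes had their 3 lowest values in the same libraries, SFM siFN, SFM siKLF4-siFN and TCM siNT. The same 3 libraries were lowest for 16.1% of the 6917 genes tested. SFM siFN held the lowest value of 35 genes, SFM siKLF4-siFN of 15 and TCM siNT of 1, the uracil glycosylase gene Ung. At the other end, TCM siKLF4 held the highest value of 24 genes, SFM siNT of 9, TCM siKLF4-siFN of 8, and SFM siKLF4 and TCM siFN of 5 each. The median FPKM of the 41 genes was 2.47 (siNT), 2.34 (siKLF4), 0.844 (siFN) and 0.901 (siKLF4-siFN) on SFM matrix, and 1.29, 2.57, 2.53 and 2.53 in the same order on TCM matrix. The set was thus lowest on SFM matrix made with siFN, intermediate in TCM siNT, and within a narrow band in the other libraries. The range over the 8 libraries was at least 1 on the log2(FPKM + 1) scale for 21 of the 31 tested genes, against 19.2% of all genes tested. Bulk RNA cannot tell fewer cells in S phase from less of these RNAs per cell.

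**Figure D1:**
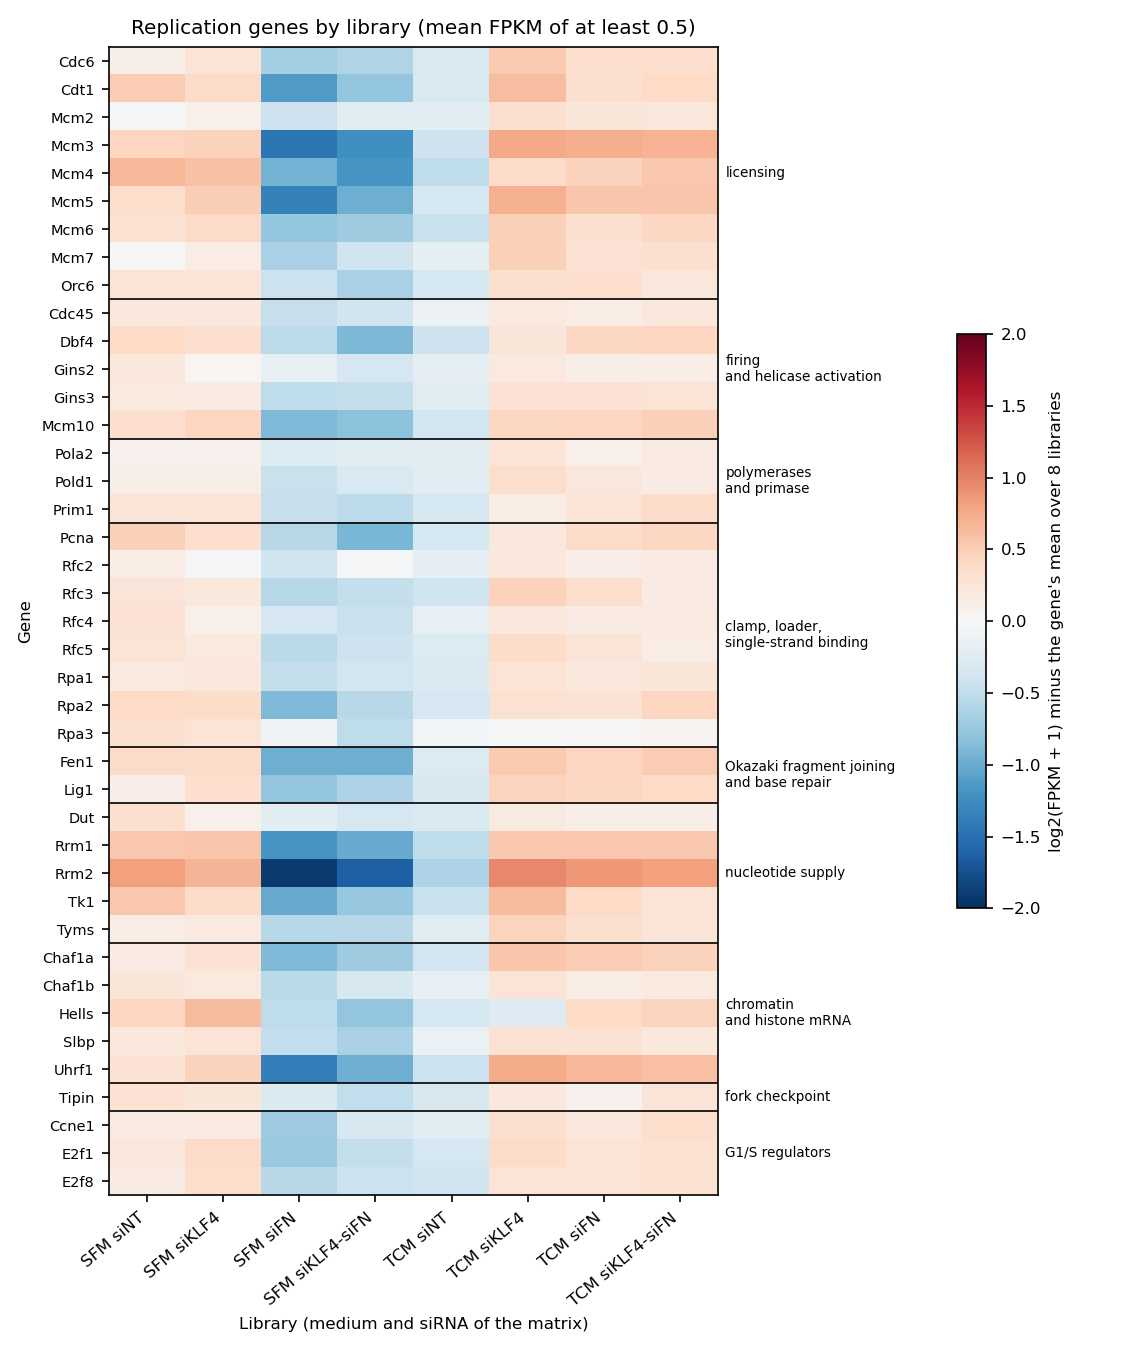
Rows are the 41 genes that averaged 0.5 FPKM or more, grouped by role, and columns are the 8 libraries. Colour gives log2(FPKM + 1) minus the gene's own mean over the libraries. SFM siFN, SFM siKLF4-siFN and TCM siNT lie below the mean (blue) in all 41 rows, if barely so for Rfc2 and Rpa3, with Rrm2 at -1.91 in SFM siFN as the lowest cell.

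The promoters of these genes were read for the letters that E2F factors are known to recognise. The list was drawn up by name, with earlier results of these data known, and many replication genes are transcribed under E2F factors. A raised share was therefore likely beforehand, and no link to the library differences was tested. A window of 300 bases from RefSeq (GRCm38.p6), 250 before and 50 after a start site, was found for 42 of the 51 genes. No window was matched for Ccne2, Dscc1, Gins1, Gins2, Mcm4, Pole, Prim2, Rfc2 and Tipin. The E2F-type forms searched on both strands were TTTCCCGC, TTTCGCGC, TTTGCCGC and TTTGGCGC, which can overlap one another on opposite strands. At least 1 form was present in 15 of the 42 genes (35.7%), against 2.61% of 27025 genes in the RefSeq table and 5.34% of the 4367 tested genes that have a window. The letters CCAAT, on either strand, were in 24 of the 42 genes (57.1%), against 41.1% of all genes and 43.4% of tested genes. Shown here, with matches in capitals, are the 6 matched genes with the smallest p in the media by siFN interaction. Each is printed 5′ to 3′ on the gene's strand.
Mcm3: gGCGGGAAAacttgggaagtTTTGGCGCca
Mcm5: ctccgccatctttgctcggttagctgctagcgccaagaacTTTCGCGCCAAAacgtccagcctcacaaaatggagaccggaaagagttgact
Uhrf1: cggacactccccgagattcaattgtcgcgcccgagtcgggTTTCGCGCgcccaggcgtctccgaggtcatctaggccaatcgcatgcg
Lig1: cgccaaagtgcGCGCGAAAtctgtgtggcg
Cdt1: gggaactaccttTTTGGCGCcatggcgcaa
Mcm6: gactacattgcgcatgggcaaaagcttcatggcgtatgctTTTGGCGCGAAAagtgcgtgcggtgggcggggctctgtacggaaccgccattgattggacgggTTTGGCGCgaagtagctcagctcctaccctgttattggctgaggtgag

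These runs lie at chr1:20820265-20820294 (minus strand) for Mcm3, chr8:75109316-75109407 (plus) for Mcm5, chr17:56304088-56304175 (plus) for Uhrf1, chr7:13278841-13278870 (plus) for Lig1, chr8:122568035-122568064 (plus) for Cdt1 and chr1:128359705-128359855 (minus) for Mcm6. In Mcm5 and Mcm6, forms on opposite strands overlap, so the capitals run together. The matches of Mcm3, Lig1 and Cdt1 lie within the first 50 bases after the window's start site, and those shown for Mcm5, Uhrf1 and Mcm6 lie before it. The windows of Uhrf1 and Lig1 belong to start sites inside the gene. A further Uhrf1 window (56303087 to 56303386), at the start of the gene, held CCAAT but no E2F-type match. Uhrf1 thus counts as matched through the internal start site. Among the 28 tested genes with a window, the 9 with a match had a median interaction of 1.44 and the 19 without one had a median of 1.20, with ranges of 0.61 to 2.32 and 0.55 to 3.20. Rrm2 and Rrm1, which had large interactions, had no match in their windows. A match describes letters only.

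Whether the step from SFM to TCM matrix depended on siFN was tested as the media by siFN interaction. Of the 31 genes tested, 16 rose and none fell, where a rise means a higher TCM minus SFM value with siFN than without it (limma, Benjamini-Hochberg adjusted p under 0.05). Over all 6917 genes tested, 3.83% rose and 3.34% fell. In each of the 16, TCM was fitted above SFM with siFN and below it without siFN, as in Rrm2 (2.62 and -0.58). The fit without siFN averages unlike pairs. TCM siNT lay below SFM siNT in all 31 genes (median -0.63). TCM siKLF4 lay below SFM siKLF4 in only 8 of the 31 (median 0.145). The median interaction of the 31 genes was 1.28 on the log2(FPKM + 1) scale, against -0.06 for all genes tested. Rrm2 had the largest value, 3.20 ± 0.56 (SE), and Rfc2 the smallest, 0.40 ± 0.23. The call depends on single libraries: it was 0 of 31 when any SFM library other than siFN was left out, or the TCM library of siFN or of siKLF4-siFN. No gene of the 6917 was called in those 5 fits. The count was 5 without TCM siNT, 18 without SFM siFN and 26 without TCM siKLF4, where 0.737%, 29.9% and 7.99% of all genes were called in either direction, against 7.17% with all libraries. These were fits with 2 residual degrees of freedom instead of 3. The count was also 0 with a pseudocount of 0.1. There 28 of the 31 genes, and 2282 of all 6917, had an unadjusted p under 0.05, against 28 and 2323 in the main fit. In the 5 fits above without any call, the median interaction of the 31 genes was 1.08 to 1.48.

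**Figure D2:**
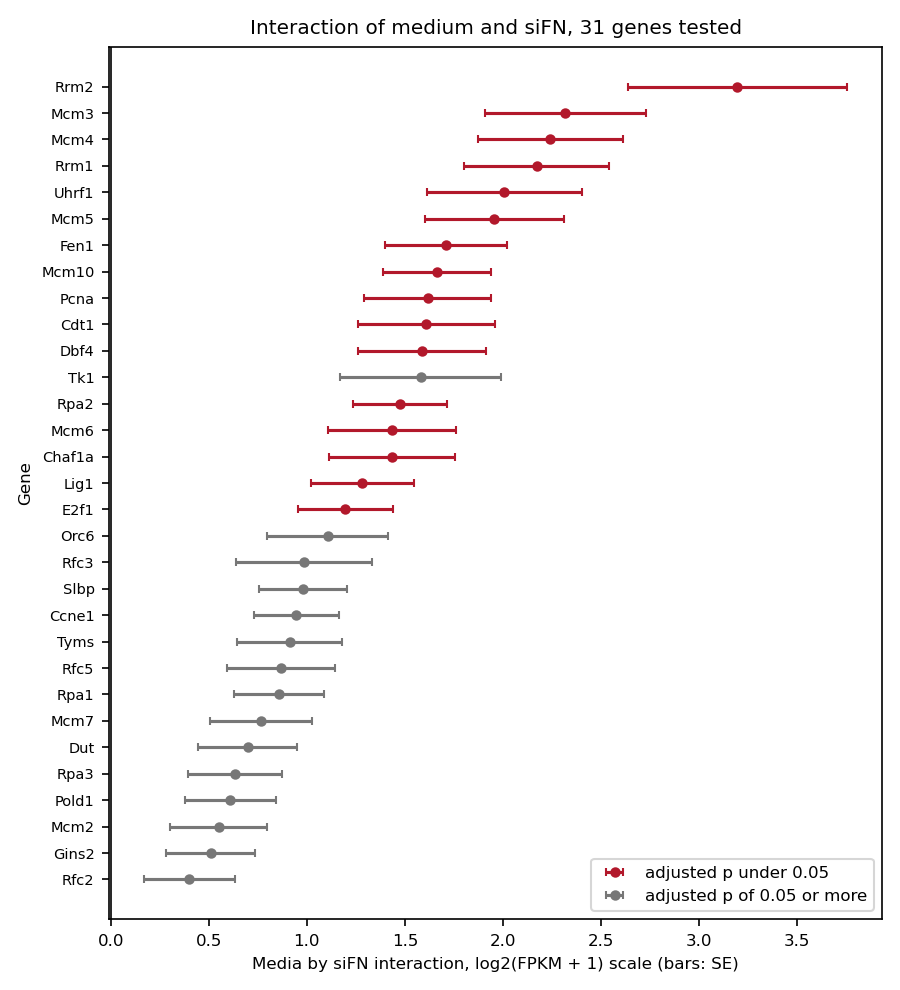
Points give the media by siFN interaction of the 31 tested genes on the log2(FPKM + 1) scale, and bars the SE of the limma fit. Red marks the 16 genes with an adjusted p under 0.05, and values run from 0.40 for Rfc2 to 3.20 for Rrm2.

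Within the same model, the siFN difference was taken on each matrix. On SFM matrix 19 of the 31 genes fell with siFN and none rose, against a fall in 3.76% of all genes tested. The median difference was -0.94 for the 31 genes and 0.01 for all genes. In all 51 genes, both SFM libraries with siFN lay below both SFM libraries without it, which held for 30.4% of tested genes. For the 51 genes this follows from the 3 libraries shared as lowest and is no further result. On TCM matrix limma called 0 of the 31 genes, and 0% of all genes. An unadjusted p under 0.05 was reached by 0 of the 31, against 391 of all 6917. The siFN libraries on TCM matrix lay above both others for 10 of the 51 genes and for 5 of the 31 tested, against 19.6% of all tested genes. With any SFM library other than siFN left out, 0 genes were called on SFM matrix, and 4 were called with either TCM library that had siFN left out, where 0% and 1.01% of all genes were called. The 0 on TCM matrix averages unlike libraries. Without TCM siKLF4 the median of the 31 genes was 0.66, against -0.02 for all genes. Without TCM siNT it was -0.04, against -0.06. Each of these fits left 1 TCM library without siFN.

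The media difference was taken with and without siFN in the same way. With siFN, 23 of the 31 genes were higher in TCM and none lower by the test, against 8.41% of all genes, and the median was 1.07. In all 51 genes both SFM libraries with siFN lay below both TCM libraries with siFN, against 33.9% of tested genes. This too follows from the 3 libraries shared as lowest. Without siFN limma called 0 of the 31 genes and 0% of all genes. An unadjusted p under 0.05 was reached by 2 of the 31, against 627 of all 6917. Both TCM libraries without siFN lay below both SFM ones for 13 of the 51 genes and for 6 of the 31 tested, against 19.2% of all tested genes. The count of 23 became 14 without SFM siNT or SFM siKLF4, where the share of all genes called in either direction went from 16.9% to 7.16% and 7.24%, and 0 without SFM siKLF4-siFN or without either TCM library that had siFN, where no gene was called. Without siFN, leaving out TCM siKLF4 gave a median of -0.64 for the 31 genes, against 0.005 for all genes. Leaving out TCM siNT turned the median to 0.13, against 0.05. Each of these fits left 1 TCM library without siFN.

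Averaged over the other treatments, limma called 0 of the 31 genes for medium, siKLF4 or siFN, and 0% of all genes. An unadjusted p under 0.05 was reached by 0 of the 31 in each, against 464, 84 and 84 of all 6917. Medians were 0.34 for medium, 0.22 for siKLF4 and -0.31 for siFN. Without TCM siNT, 26 of the 31 genes had an unadjusted p under 0.05 for medium and 26 for siFN, still with 0 called. Of all 6917 genes, 930 and 471 had such a p. The siKLF4 median of the 31 genes turned to -0.09. These averages pool libraries that lie apart, since siFN went with lower values on SFM matrix and TCM siNT lay below TCM siKLF4. The residual of this model holds the media by siFN contrast, so the 0 calls do not show that a treatment had no effect.

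Pairs of single libraries show where the steps lay, with no replicate check. Where a pair differed 1 way in all 51 genes, that follows from the 3 libraries shared as lowest. SFM siFN was lower than SFM siNT in all 51 genes, and 14 of the 31 tested genes were lower by at least 1 on the log2(FPKM + 1) scale, against 2.86% of all tested genes. SFM siKLF4-siFN was lower than SFM siKLF4 in all 51, and again 14 genes were lower by at least 1, against 7.27%. The median FPKM ratio of the 41 described genes was 0.304 in the former pair and 0.319 in the latter. The 2 siFN libraries on SFM matrix were near each other: no member differed by 1 between them, against 2.99% of all genes. On SFM matrix, siKLF4 alone made little difference, with a median ratio of 1.01 to SFM siNT and no member past 1, against 0.723%.

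TCM siNT stood apart from the other TCM libraries. It was lower than SFM siNT in all 51 genes with a median ratio of 0.523, and 3 genes, Rrm2, Mcm4 and Rrm1, were lower by at least 1, against 1.86% of all genes. These 3 names were read off after their values were seen. TCM siFN exceeded TCM siNT in all 51 genes (median ratio 2.03), 4 of the 31 by at least 1, against 1.62%. TCM siKLF4 exceeded it in all 51 as well (median ratio 2.18), 6 of the 31 by at least 1, against 1.56%. The higher level was thus present with either siRNA alone, and adding siKLF4 to siFN gave a median ratio of 1.02 with no member past 1, against 0.289%. Nor did any member differ by 1 between TCM siKLF4-siFN and TCM siKLF4 (0.781% of all genes) or between TCM siKLF4 and SFM siKLF4 (1.32%).

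Between media with siFN the steps were again wide. TCM siFN exceeded SFM siFN in all 51 genes, 15 of the 31 by at least 1, against 3.22% of tested genes. TCM siKLF4-siFN exceeded SFM siKLF4-siFN in all 51, also with 15 by at least 1, against 7.46%. The median ratios were 3.37 and 3.45.

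Ribonucleotide reductase, which makes deoxynucleotides, showed the pattern at high levels. Rrm2, its S phase subunit (chromosome 12, 24708241 to 24714146), had an FPKM of 25.4, 23.1, 2.98 and 3.81 in the SFM libraries siNT, siKLF4, siFN and siKLF4-siFN, and of 8.79, 28.0, 26.3 and 25.3 in the TCM libraries in that order. Rrm2 was thus 8.52-fold lower in SFM siFN than in SFM siNT and 6.05-fold lower in SFM siKLF4-siFN than in SFM siKLF4, while TCM siNT fell between these and the rest. The fitted siFN difference of Rrm2 on SFM matrix was -2.52 ± 0.40 (SE, log2, limma adjusted p = 0.0331), and its interaction had an adjusted p of 0.0419. Rrm1, the large subunit (chromosome 7, 102441695 to 102469771), stood at 6.90, 6.98, 1.41 and 1.70 in the SFM libraries and 2.81, 6.88, 6.93 and 6.94 in the TCM libraries. The 5 high libraries of Rrm1 lay within 6.88 to 6.98, and its interaction was 2.17 ± 0.37 (limma adjusted p = 0.0401). Because Rrm2 moved further than Rrm1, the ratio of their FPKM was 2.12 (siFN) and 2.24 (siKLF4-siFN) on SFM matrix, 3.13 in TCM siNT, and 3.30 to 4.07 elsewhere.

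The other genes of nucleotide supply followed with varying depth. Tk1, thymidine kinase, ranged from 0.207 in SFM siFN to 2.76 in TCM siKLF4, a ratio of 13.4, and its low value corresponds to about 10.8 reads. Tyms, thymidylate synthase, ranged from 0.388 to 1.81. Neither passed the interaction test (1.58 ± 0.41, limma adjusted p = 0.0621 for Tk1, and 0.91 ± 0.27, 0.0769 for Tyms), but Tk1 fell with siFN on SFM matrix (adjusted p = 0.0456). Dut, which removes dUTP, had 2.66, 2.14, 1.50 and 1.32 in the SFM libraries and 1.37, 2.30, 2.22 and 2.22 in the TCM libraries. Its values spanned a ratio of only 2.02, and its interaction did not pass (0.70 ± 0.25, adjusted p = 0.111).

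**Figure D3:**
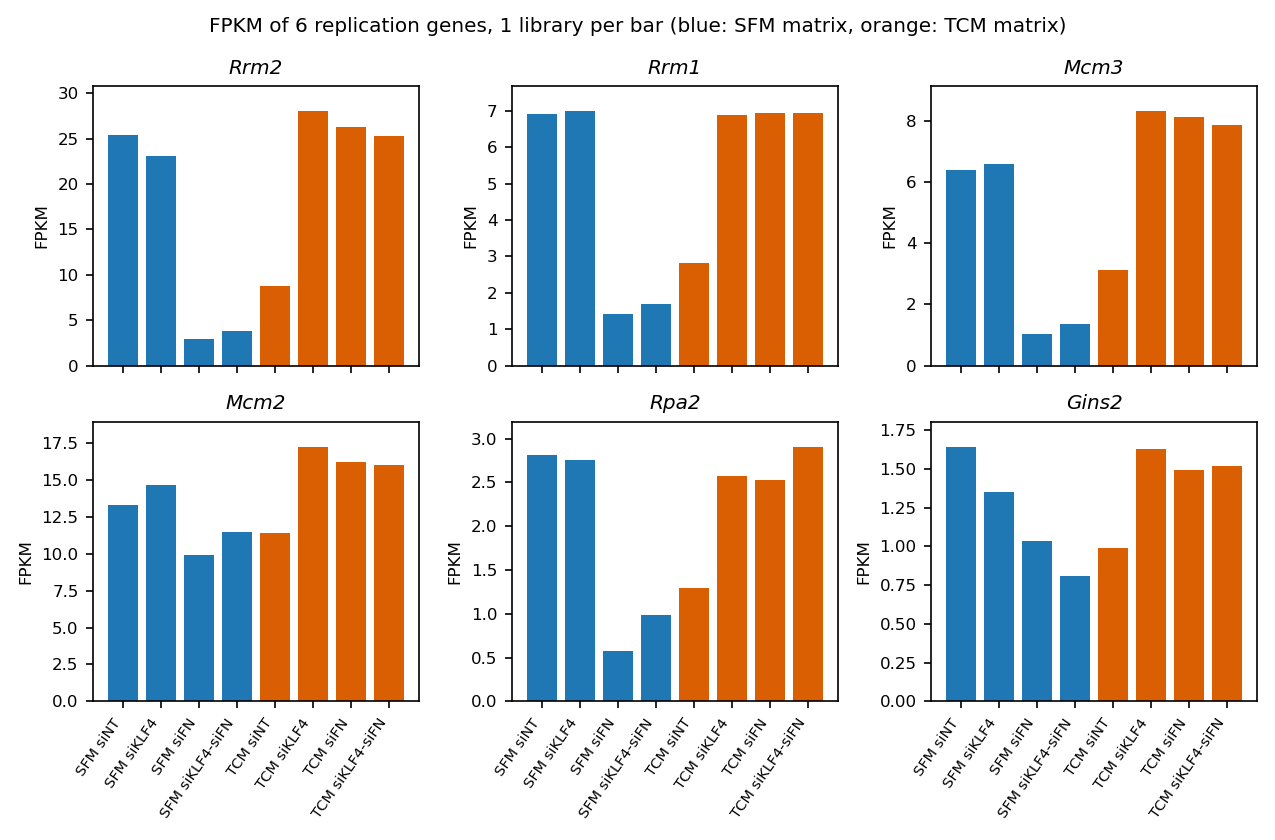
Each bar is the FPKM of 1 library, blue for SFM matrix and orange for TCM matrix, on axes that start at 0. Rrm2, Rrm1, Mcm3 and Rpa2 drop to low levels in SFM siFN, SFM siKLF4-siFN and TCM siNT, while Mcm2 spans only 9.89 to 17.2 and Gins2 only 0.810 to 1.64.

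Origin licensing genes gave 5 of 8 tested members that rose in the interaction, against 3.83% of all genes tested. These were Mcm3, Mcm4, Mcm5, Mcm6 and Cdt1. Mcm4 (chromosome 16, 15623897 to 15637400) had the smallest p of the group, with FPKM of 5.54, 5.21, 1.16 and 0.825 in the SFM libraries and 1.93, 4.40, 4.70 and 5.03 in the TCM libraries. Its interaction was 2.24 ± 0.37 (limma adjusted p = 0.0385), and its 3 low libraries did not overlap the others. Mcm3 (chromosome 1, 20802968 to 20820312) had 6.41, 6.59, 1.02 and 1.36 in the SFM libraries and 3.13, 8.31, 8.13 and 7.86 in the TCM libraries. For Mcm3 the interaction was 2.32 ± 0.41 (limma adjusted p = 0.0419), and the TCM libraries other than siNT lay above both high SFM libraries. Mcm2 (chromosome 6, 88883474 to 88898780) had the largest p of the group and a narrow spread, at 13.3, 14.6, 9.89 and 11.5 in the SFM libraries and 11.4, 17.2, 16.2 and 16.0 in the TCM libraries. Mcm2 did not pass in the interaction (0.55 ± 0.25, limma adjusted p = 0.169) or on SFM matrix with siFN (adjusted p = 0.192).

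The ring is built from the products of Mcm2 to Mcm7 in equal number, yet their RNAs moved unequally. Mcm2 and Mcm7 made up 27.5% and 26.7% of the summed FPKM of Mcm2 to Mcm7 in SFM siNT. Their shares were 43.4% and 34.7% with siFN and 43.0% and 35.7% with siKLF4-siFN on SFM matrix, and 34.4% and 33.8% in TCM siNT. In the other 4 libraries Mcm2 took 28.1% to 28.8% and Mcm7 27.7% to 29.9%. Mcm3 and Mcm5 gave way in step: in SFM siFN they took 4.48% and 3.70%, against 13.2% and 10.3% in SFM siNT. The summed FPKM itself was 48.6 (siNT), 22.8 (siFN) and 26.7 (siKLF4-siFN) on SFM matrix, 33.1 in TCM siNT, and 52.1 to 61.0 in the others. A share within a library shows unequal change and not that Mcm2 or Mcm7 stayed the same. The highest to lowest ratio was 1.74 for Mcm2, 2.31 for Mcm7, 3.09 for Mcm6, 6.72 for Mcm4, 7.96 for Mcm5 and 8.14 for Mcm3. No test compared these ratios.

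**Figure D4:**
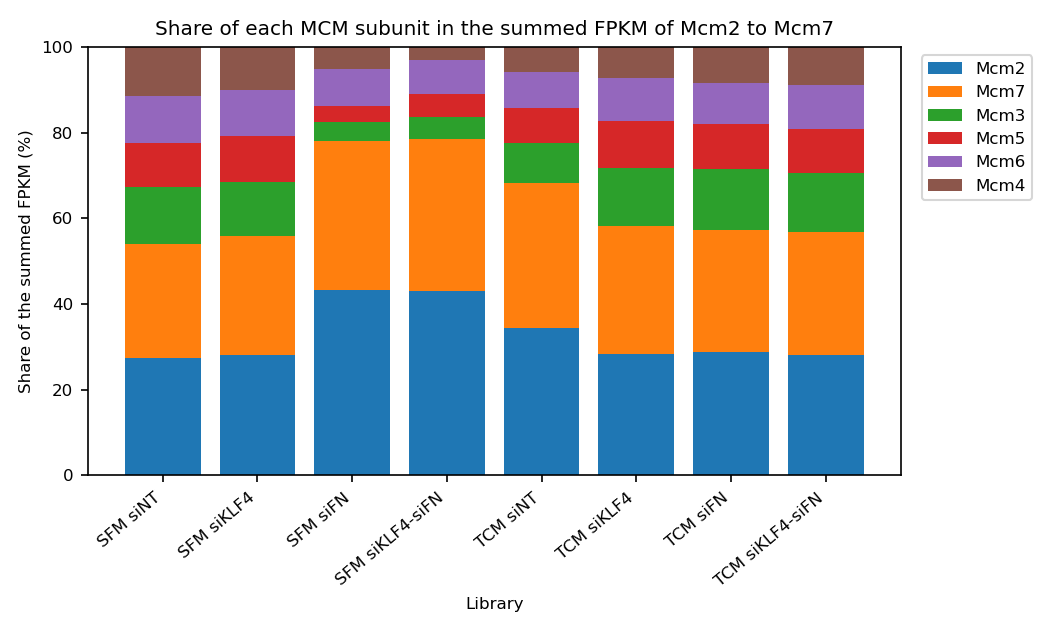
Stacked bars give the percent of the summed FPKM of Mcm2 to Mcm7 that each subunit took in each library. Mcm2 took 43.4% and Mcm7 34.7% in SFM siFN, against 27.5% and 26.7% in SFM siNT.

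The loading factors that work with the ring had varied spreads. Cdt1, which brings the ring to origins, ranged from 2.73 in SFM siFN to 11.5 in TCM siKLF4, with an interaction of 1.61 ± 0.35 (limma adjusted p = 0.0474). Orc6, a subunit of the origin recognition complex, ranged from 0.951 to 2.86 and did not pass (1.11 ± 0.31, adjusted p = 0.0697). Cdc6, the ATPase that loads the ring, was below the tested level, with 0.936, 1.16, 0.115 and 0.176 in the SFM libraries and 0.441, 1.58, 1.26 and 1.25 in the TCM libraries. Its smallest estimated read number in any library was about 10.9. Orc1 was lower still, with a mean of 0.167 and as few as 1.18 estimated reads in a library, so no ratio is given.

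Among genes that fire origins, Mcm10 and Dbf4 rose in the interaction and Gins2 did not pass. Mcm10, a factor that helps to activate the helicase (chromosome 2, 4989714 to 5012791), had 1.76, 1.95, 0.191 and 0.243 in the SFM libraries and 0.692, 1.92, 1.96 and 2.06 in the TCM libraries. SFM siFN was 9.19-fold below SFM siNT for this gene, and its interaction was 1.66 ± 0.28 (limma adjusted p = 0.0385). Dbf4, the activating subunit of the Cdc7 kinase, had 2.47, 2.34, 0.843 and 0.409 in the SFM libraries and 0.978, 2.13, 2.53 and 2.55 in the TCM libraries, with an interaction of 1.59 ± 0.33 (limma adjusted p = 0.0432). Unlike Mcm10, it was lower in SFM siKLF4-siFN than in SFM siFN. Gins2, of the GINS complex, had 1.64, 1.35, 1.04 and 0.810 in the SFM libraries and 0.988, 1.63, 1.49 and 1.52 in the TCM libraries (0.51 ± 0.23, limma adjusted p = 0.165). Its partner Gins3 had a wider spread, from 0.198 to 1.07, as did Cdc45, from 0.133 to 0.831, although both were below the tested level. The lowest values of Gins3 and Cdc45 correspond to about 7.38 and 5.12 reads. Gins1 and Cdc7 had means of 0.349 and 0.260.

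Polymerase and primase genes were low in these libraries. Pold1, the catalytic subunit of polymerase delta, was the only one tested, with 1.33, 1.34, 0.584 and 0.740 in the SFM libraries and 0.866, 1.76, 1.52 and 1.41 in the TCM libraries. Its groups kept the shared order but it did not pass (0.61 ± 0.23, limma adjusted p = 0.124). Prim1, the catalytic primase subunit, ranged from 0.248 to 1.34 and Pola2 from 0.237 to 0.809. Pole, Prim2 and Pola1 had means of 0.456, 0.135 and 0.0661. The lowest value of Pola1 corresponds to under 1 read.

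Of the 7 tested genes of the clamp, its loader and the single-strand binding complex, Rpa2 and Pcna rose in the interaction. Among all genes tested, 3.83% rose. Rpa2 (chromosome 4, 132768332 to 132778752) had the smallest p of all 31 genes, with 2.81, 2.76, 0.574 and 0.981 in the SFM libraries and 1.29, 2.57, 2.53 and 2.90 in the TCM libraries (1.48 ± 0.24, limma adjusted p = 0.0385). The RPA complex holds 1 copy of each subunit, but the subunits differed: the highest to lowest ratio was 5.06 for Rpa2, 2.05 for Rpa1 and 1.95 for Rpa3. Neither Rpa1 (0.86 ± 0.23, limma adjusted p = 0.0665) nor Rpa3 (0.63 ± 0.24, limma adjusted p = 0.122) passed. The ratio of Rpa2 to Rpa1 was 0.325 (siFN) and 0.492 (siKLF4-siFN) on SFM matrix, 0.605 in TCM siNT and 0.709 to 0.827 in the others.

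Pcna, the sliding clamp, was the most abundant member, with 36.7, 33.1, 17.3 and 13.3 in the SFM libraries and 20.2, 30.2, 34.2 and 34.9 in the TCM libraries (1.62 ± 0.33, limma adjusted p = 0.0432). The table also lists the processed copy Pcna-ps2 at a higher mean, 47.0 against 27.5, with values from 27.9 in SFM siKLF4-siFN to 62.3 in TCM siKLF4. Reads of Pcna may have been divided between both rows, so its level is uncertain. Rfc2, of the loader that places the clamp, had 1.81, 1.48, 0.935 and 1.47 in the SFM libraries and 1.24, 1.93, 1.77 and 1.83 in the TCM libraries. It had the largest p of all 31 genes (0.40 ± 0.23, limma adjusted p = 0.257), and SFM siKLF4-siFN (1.474) reached nearly the level of SFM siKLF4 (1.482). Rfc3 and Rfc5 spanned 1.39 to 3.92 and 1.20 to 3.13 and did not pass, while Rfc4 spanned 0.270 to 1.12 below the tested level. Dscc1, of the alternative loader, had a mean of 0.370.

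Both tested genes that finish Okazaki fragments rose, against 3.83% of all genes tested. Fen1, the flap nuclease (chromosome 19, 10199132 to 10204169), had 8.73, 8.75, 2.78 and 2.79 in the SFM libraries and 5.19, 9.78, 9.10 and 9.68 in the TCM libraries (1.71 ± 0.31, limma adjusted p = 0.0419). The 2 siFN libraries on SFM matrix were nearly equal for Fen1. Lig1, the joining ligase, had 1.56, 1.92, 0.338 and 0.511 in the SFM libraries and 0.868, 2.16, 2.10 and 2.05 in the TCM libraries (1.28 ± 0.26, limma adjusted p = 0.0432). Ung, which removes uracil from DNA, had a mean of 0.348 and was the 1 gene whose lowest value, 0.201, fell in TCM siNT, next to 0.202 in SFM siFN.

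Genes that rebuild chromatin behind the fork gave 2 rises among 3 tested, against 3.83% of all genes tested. Uhrf1, which guides maintenance methylation (chromosome 17, 56303321 to 56323486), had 5.24, 6.01, 0.990 and 1.60 in the SFM libraries and 2.81, 7.58, 7.09 and 6.71 in the TCM libraries (2.01 ± 0.39, limma adjusted p = 0.0432). Chaf1a, the large subunit of the histone chaperone CAF-1, had 1.89, 2.18, 0.398 and 0.577 in the SFM libraries and 0.990, 2.79, 2.70 and 2.58 in the TCM libraries (1.43 ± 0.32, limma adjusted p = 0.0482). In both genes the 3 high TCM libraries exceeded the high SFM libraries. Slbp, which binds histone mRNA, had 2.42, 2.55, 1.10 and 0.881 in the SFM libraries and 1.70, 2.61, 2.62 and 2.41 in the TCM libraries, and did not pass (0.98 ± 0.23, limma adjusted p = 0.0506). It did fall with siFN on SFM matrix (limma adjusted p = 0.0408). Chaf1b ranged from 0.304 to 1.26.

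Hells, a chromatin remodeller, departed from the common pattern in TCM siKLF4, as did Ccne2. Both were singled out after their values were seen. Hells had 1.47, 1.82, 0.291 and 0.0574 in the SFM libraries and 0.430, 0.524, 1.41 and 1.49 in the TCM libraries, so TCM siKLF4 stood near TCM siNT and not near the other TCM libraries. Its lowest value corresponds to about 4.35 reads. With the filter lowered to a mean of 0.5, Hells rose in the interaction (1.91 ± 0.18, limma adjusted p = 0.0431). Ccne2, a cyclin of the G1 to S step, had 0.305 in TCM siKLF4 against 0.779 and 0.758 in the TCM libraries with siFN and siKLF4-siFN.

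Among regulators of the G1 to S step, E2f1 rose and Ccne1 did not pass. E2f1, the transcription factor, had 2.10, 2.48, 0.593 and 0.901 in the SFM libraries and 1.09, 2.44, 2.21 and 2.30 in the TCM libraries (1.20 ± 0.24, limma adjusted p = 0.0432). Ccne1, cyclin E1, had 2.22, 2.24, 0.726 and 1.28 in the SFM libraries and 1.45, 2.54, 2.34 and 2.65 in the TCM libraries (0.95 ± 0.22, limma adjusted p = 0.0503). E2f8, a repressor of the E2F family, spanned 0.103 to 1.08, a ratio of 10.5, and its lowest value corresponds to about 8.01 reads. The fork checkpoint gene Tipin spanned 0.375 to 1.35, and Clspn, the other checkpoint gene, 0.0617 to 0.765.

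Base composition moved with some library differences. Over the 41 described genes, the difference between SFM siKLF4-siFN and SFM siFN correlated with the GC content of the longest GENCODE transcript at Pearson r = 0.71 (0.69 without Hells), and over 6550 tested genes with a GC value at r = 0.54. In the 13 genes of lowest GC (34.2% to 46.0%) this difference had a median of -0.20, and in the 13 of highest GC (51.9% to 61.0%) a median of 0.24. TCM siKLF4 against SFM siKLF4 gave r = 0.59 (0.55 without Hells) and 0.43 over tested genes. Hells, at 37.7% GC, was the second lowest of the 41 and Dbf4, at 39.1%, the next. For SFM siFN against SFM siNT r was -0.14, and all 13 genes of each class lay below 0, with medians of -0.83 and -1.05. The other siFN pair on SFM matrix gave r = 0.16 in the 41 genes and 0.51 over tested genes, and TCM siKLF4-siFN against TCM siKLF4 gave -0.49 and -0.47. These are descriptions across genes that share the same libraries, and the part of GC content in the results was not tested.

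**Figure D5:**
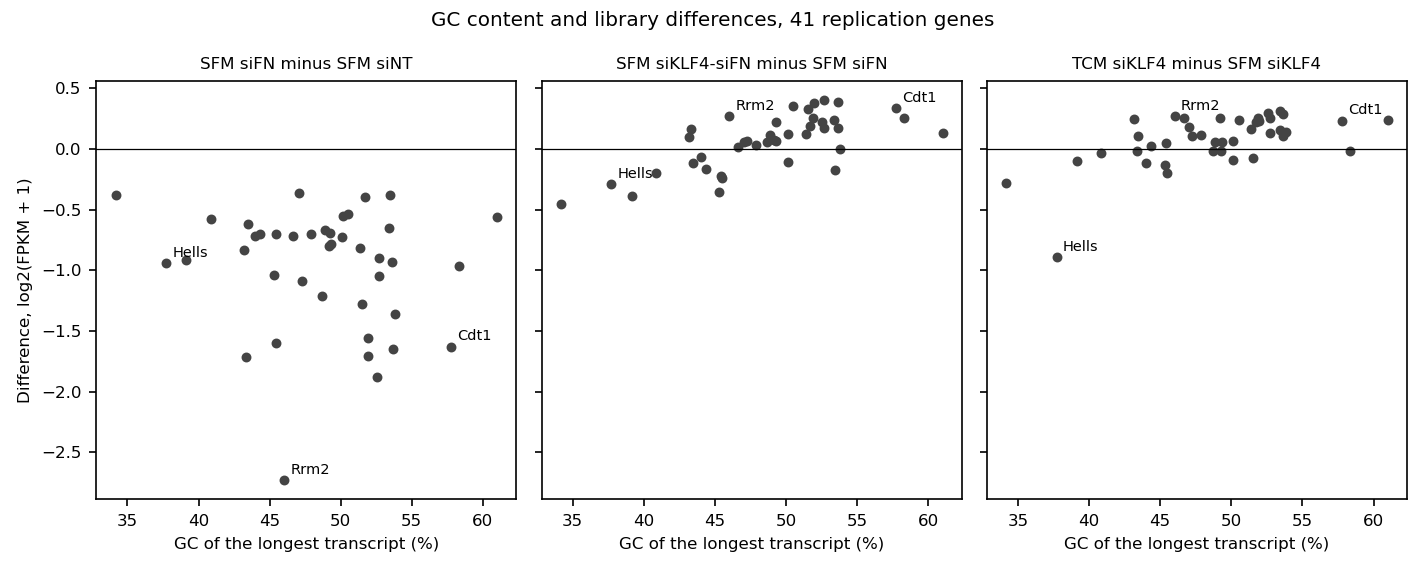
Points are the 41 genes that averaged 0.5 FPKM or more. The horizontal axis is the GC percent of the longest transcript and the vertical axis the difference of log2(FPKM + 1) between 2 libraries. All points lie below 0 for SFM siFN minus SFM siNT at any GC, while the other panels slope upward, with r = 0.71 and r = 0.59.

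Other genes of DNA replication, from a list of 59, moved less uniformly. Of 29 tested, 8 rose in the interaction and none fell, with a median of 0.66, where 3.83% of all genes tested rose. The smallest p belonged to Top2a (3.97 ± 0.51, limma adjusted p = 0.0375), which untangles sister strands, to Ccna2, the S phase cyclin (3.59 ± 0.55), to the histone chaperone Nasp (1.21 ± 0.19) and to Top2b (1.67 ± 0.27). Accessory subunits such as Pole4 (0.11 ± 0.17), Pold4 (-0.15 ± 0.23) and Pold2 (-0.37 ± 0.19), picked after their values were seen, did not pass. Of 16 tested mitosis genes, from a list of 26, 14 rose, with a median of 2.25. Both lists were lowest in the same 3 libraries by their centred means, at -0.39, -0.45 and -0.21 for the replication list and -1.17, -1.12 and -0.55 for mitosis in SFM siFN, SFM siKLF4-siFN and TCM siNT.

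Inhibitors of the cell cycle had the same sign as the replication genes in 3 calls, where 3.83% of all genes tested rose. Of 8 tested from a list of 11, Ccng2 (1.28 ± 0.25), Cdkn2d (1.46 ± 0.30) and Cdkn2c (1.53 ± 0.33) rose in the interaction (limma adjusted p = 0.0432, 0.0432 and 0.0446). Ccng1, cyclin G1, had an FPKM of 70.3, 72.6, 27.4 and 7.29 in the SFM libraries and 22, 44.7, 68.2 and 69.3 in the TCM libraries. It did not pass the test (3.34 ± 0.80, limma adjusted p = 0.0544). Stress response genes lay the other way as a sum led by Hspa5 and Atf4. Their summed FPKM was 1328, 1260 and 1302 in SFM siFN, SFM siKLF4-siFN and TCM siNT and 847 to 950 in the other libraries. Of 15 such genes, Ppp1r15a, Trib3 and Hyou1 fell in the interaction (-1.92, -1.39 and -1.88), against 3.34% of all genes tested. The median of the 15 was -0.76. Slc7a11 and Ddit3, picked after their values were seen, departed from the sum. Slc7a11 had the other sign (0.68 ± 0.31) and its lowest value, 0.296, in SFM siKLF4-siFN. Ddit3 was higher in TCM siKLF4 (41.6) than in SFM siFN (32.8) or SFM siKLF4-siFN (37.2). The melanocyte markers summed to 359.8 in SFM siFN and 450.4 to 592.2 in the other libraries, a sum led by Tyrp1. SFM siKLF4-siFN (540.6) and TCM siNT (522.3) were not low by this sum. Their centred means were -0.80, -0.19 and -0.14 in SFM siFN, SFM siKLF4-siFN and TCM siNT and 0.09 to 0.45 elsewhere. By that measure alone the same 3 libraries were lowest. Tyr and Mc1r rose among 8 tested (1.33 and 2.58), where 3.83% of all genes tested rose. Tyrp1, which led the sum, had the other sign (-0.39 ± 0.34) and its highest values in SFM siKLF4-siFN (325) and TCM siNT (298). The part of these shifts in the values of the replication genes was not tested.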

How the data were processed

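The authors deposited FPKM values in 1 table, with a column for each library. The tools named are STAR 2.4.1d and Partek, and the build mm10, per the submitters' processing notes. How reads were counted, with which annotation and strand, is not given in the sources used here, nor is any scaling. Genes with several transcripts or near-identical copies may have had reads divided between rows.

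Symbols were matched to GENCODE M21 (GRCm38, the assembly of mm10), and 90.2% of rows matched. Coordinates are 1-based. Of the 6917 genes tested, 94.7% had a GC value. All 37 rows of mitochondrial transcripts were listed at 0, so a 0 need not mean low expression. Depth was estimated in genes with 1 annotated transcript over 600 nt. The step chosen put 44.9% to 48.8% of low values within 0.05 read of a whole number, where a step fixed beforehand would give 10%. Read numbers in the text are therefore approximate, and no count test was run.

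limma 3.58.1 in R 4.3.3 was fitted to log2(FPKM + 1), which understates the change of low genes, keeping genes that averaged 1 FPKM or more. Tests were two-sided with a trended variance, and p-values were Benjamini-Hochberg adjusted over all 6917 genes, with a threshold of 0.05. The additive model left 4 residual degrees of freedom, and the model with the interaction left 3. Libraries sharing a level stand in for replicates. The residual of the model with the interaction therefore holds the interactions of siKLF4 with medium and with siFN. It holds no spread between replicates of a condition. The fits were tested on simulated data. In each role the 2 tested members with the smallest interaction p and the 1 with the largest are given in every library, or all where a role had 3 or fewer. Of other replication genes and inhibitors up to 4, and of other lists up to 3, were named by smallest p. The members and lists were chosen with earlier results of these data known.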

Additional observations from a re-analysis of the deposited data

Results flagged for a closer look

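For 16 of the 31 tested genes the siFN difference on TCM matrix differed from that on SFM matrix by limma's interaction test, at an adjusted p of 0.0385 to 0.0494, against 7.17% of all 6917 genes tested. The interaction on the log2(FPKM + 1) scale was 3.20 for Rrm2, 2.32 for Mcm3, 2.24 for Mcm4, 2.17 for Rrm1, 2.01 for Uhrf1, 1.96 for Mcm5, 1.71 for Fen1, 1.66 for Mcm10, 1.62 for Pcna, 1.61 for Cdt1, 1.59 for Dbf4, 1.48 for Rpa2, 1.44 for Mcm6, 1.43 for Chaf1a, 1.28 for Lig1 and 1.20 for E2f1.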

How the results depend on the processing

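No paired analysis was possible because each condition has 1 library and the labels give no replicate numbers. The count of 16 of 31 genes in the interaction was 0 with a pseudocount of 0.1, 6 of 9 tested genes at a mean FPKM of at least 5, and 0 of 51 with no filter on low values, where 0%, 9.66% and 0.0649% of all genes were called. For siFN on SFM matrix, 19 became 6 of 9 and 0 of 51 under those filters (9.97% and 0.0464% of all genes), and for TCM minus SFM with siFN, 23 became 7 of 9 and 0 of 51 (24.1% and 0.0649%). Leaving out 1 library at a time gave 0 to 26 for the interaction, 0 to 24 for siFN on SFM matrix and 0 to 26 for TCM minus SFM with siFN. The 71 differences of at least 1 over 12 pairs of libraries and 31 genes became 124 with a pseudocount of 0.1. All genes were not counted at that pseudocount, so whether the rise is particular to these genes was not tested. The cause of these changes was not tested. At a mean FPKM of at least 0.5, 11 of 41 genes were called in the interaction, against 3.91% of all genes. Every one of the 31 genes kept the sign of its interaction under each alternative in which it was tested. The 5 comparisons with 0 of the genes called stayed at 0 in all alternatives. Without TCM siNT, however, 26 of 31 had an unadjusted p under 0.05 for medium and 26 for siFN, against 930 and 471 of all 6917. Depth limits the 10 genes with a mean under 0.5, whose low values rest on few reads. It also limits genes with a mean of 0.5 to 1. The lowest values of Hells, Rfc4, Cdc45, Gins3, E2f8 and Tipin correspond to about 4.35, 4.46, 5.12, 7.38, 8.01 and 8.89 reads.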
